A study of Mus musculus with 6 samples.

Results

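The genes described here encode the aminoacyl-tRNA synthetases, the enzymes that charge each tRNA with its amino acid, and they were followed in the growth plate cartilage of mouse embryos with and without Hnrnpk in chondrocytes. Members were taken by symbol from the named genes of the expression table, and 40 of its 15803 genes matched. Of these, 21 encode cytosolic synthetases, 17 encode mitochondrial synthetases, and Aimp1 and Aimp2 encode 2 scaffold proteins without enzyme activity of this kind. Poly(A) RNA was sequenced from cartilage at embryonic day 18.5 (E18.5), as 3 libraries labelled WT and 3 labelled CKO. The WT embryos were Hnrnpk fl/fl and carried no Cre. The CKO embryos were Col2a1-Cre;Hnrnpk fl/fl, so both genotypes had the loxP sites, and Cre was made where the Col2a1 promoter is active, mainly in chondrocytes. The cartilage of both genotypes was dissected tissue and not sorted cells. The labels do not say whether a library held 1 embryo or several, so the p-values measure the spread between these libraries, which may be partly technical.

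Synthetases work in 2 places. The cytosolic set serves the ribosomes that make nearly all cell protein, including the collagens and proteoglycans that chondrocytes secrete, and the mitochondrial set serves the few proteins encoded by mitochondrial DNA. In mammals several cytosolic synthetases are held together in a multisynthetase complex on the scaffold proteins Aimp1, Aimp2 and Eef1e1. When charged tRNA runs short, the kinase Gcn2 (Eif2ak4) phosphorylates eIF2 and the transcription factor Atf4 induces amino acid enzymes, transporters and many cytosolic synthetase genes.

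Levels are CPM, the read count of a gene after each library was scaled to sum to 1000000. The libraries held 1183743 to 1379674 reads (WT) and 1153871 to 1454094 reads (CKO), so that 1 read was worth 0.688 to 0.867 CPM. Genotypes were compared with limma on log2(CPM + 1), a scale on which changes of genes with few reads are understated, and p-values were adjusted by the Benjamini-Hochberg method over the 12155 genes that averaged 1 CPM or more. WT 3 and CKO 2 stood apart: chi-square per degree of freedom between their reads and those of their group's other libraries was 8.65 to 9.43 and 13.1 to 14.2, against 2.06 between WT 1 and WT 2 and 1.29 between CKO 1 and CKO 3. Hnrnpk itself overlapped between the labels over the whole gene (log2 fold change -0.14, limma's adjusted p = 0.622), and reads on the deleted exons were not separated here, so the direction of each difference rests on the labels. The chondrocyte markers were present in both genotypes, and their summed level was 25402 to 32195 CPM in WT and 6440 to 6675 CPM in CKO. Of the 10 chondrocyte markers, 8 fell (adjusted p under 0.05), and summed macrophage and osteoclast markers stood at 101 to 120.0 CPM (WT) and 186 to 198 CPM (CKO). All 8 tested genes of the latter list had positive log2 fold changes. Only Cd68 passed, with means of 9.09 CPM (WT) and 66.5 CPM (CKO), and the others overlapped between the genotypes. In bulk tissue, fewer cells of a type and less RNA per cell cannot be told apart, and the part of cell composition in the values below was not tested.

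The synthetase genes showed no common direction. Of the 38 members with enough reads to test, 19 had a positive and 19 a negative log2 fold change (CKO over WT), with a median of -0.01 where all genes tested had 0.01. Their summed level was 3177, 3406 and 3270 CPM in the WT libraries (in order) and 3175, 3293 and 3229 CPM in the CKO libraries. These sums overlapped between the genotypes. Within the group, Eprs fell and Rars rose (limma's adjusted p under 0.05). Of all genes tested, 2.6% fell and 3.18% rose at that threshold (5.78% in either direction). The remaining 36 tested members did not pass it. By the criterion of the study, a change of more than 1 in either direction on the log2 scale together with an unadjusted p under 0.05, Eprs counted as lower and Yars2 as higher, where 5.1% and 5.3% of all genes did. In 15 of the 38 (39.5%) the libraries of the genotypes did not overlap, 11 higher and 4 lower in CKO. Among all genes tested, 27.7% did not overlap (14.5% higher and 13.2% lower). This share was larger at higher levels: among 3013 genes in the level range of the cytosolic synthetases (38.2 to 394 CPM) it was 39.3%, against 45% of the 20 cytosolic synthetases tested, a range set after the values were seen.

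**Figure D1:**
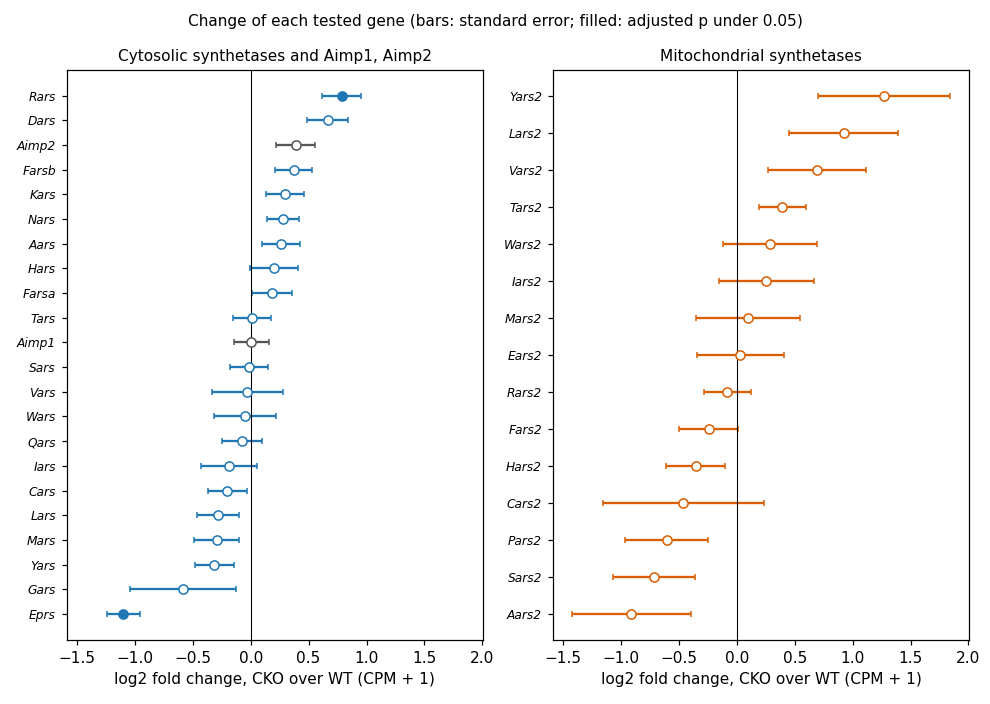
Each point is 1 tested gene that is reported singly, placed by its log2 fold change (CKO over WT, on the CPM + 1 scale) with its standard error from limma as a bar, and a filled point passed an adjusted p of 0.05. Eprs at -1.10 and Rars at 0.79 are the 2 filled points, and the mitochondrial genes have wider bars than most cytosolic genes.

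Eprs had the largest change of the cytosolic set. It encodes the fused enzyme that charges both glutamyl- and prolyl-tRNA, and proline is abundant in collagen. Eprs (ENSMUSG00000026615, GRCm38 chromosome 1, 185363044 to 185428360, plus strand) stood at 369.7, 399 and 378 CPM in the WT libraries (in order) and at 179, 181 and 173 CPM in the CKO libraries. All CKO libraries lay below all WT libraries, and the spread within each genotype was small: 382 ± 15.2 CPM in WT and 178 ± 4.13 CPM in CKO (mean ± SD, n = 3 each), a ratio of 0.465. It fell by 1.10 on the log2 scale (SE 0.14, limma's adjusted p = 0.0027), and leaving out any 1 library gave -1.12 to -1.07. The values rested on 1490 reads in WT and 712 in CKO, and no near-identical copy of the gene was found in the annotation.

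A ratio within each library does not depend on how libraries are scaled to each other. Of the reads on cytosolic synthetase genes, Eprs took 13.9%, 13.6% and 13.5% in WT and 6.72%, 6.45% and 6.32% in CKO. It was second to Sars in WT, where Sars took 14.1 ± 1.02% and Eprs 13.7 ± 0.196% (mean ± SD, n = 3), a difference within the spread of Sars. In CKO the order was Sars with 14.3 ± 1.98%, Nars with 12.7 ± 0.412%, Dars with 7.97 ± 1.0% and Eprs with 6.50 ± 0.200%. Dars and Eprs did not overlap in their shares there. Without Eprs, the cytosolic synthetases summed to 2294 to 2530 CPM in WT and 2492 to 2626 CPM in CKO, which overlapped.

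Rars, the arginyl-tRNA synthetase, went the other way. Its level was 84.8, 84.8 and 67.6 CPM in the WT libraries (in order) and 135, 134 and 140.4 CPM in the CKO libraries, without overlap. It rose by 0.79 (SE 0.17, limma's adjusted p = 0.0262), and its share of cytosolic synthetase reads went from 2.83 ± 0.392% to 4.98 ± 0.193% (n = 3 each). The direction held without any 1 library (0.68 to 0.84). The call was lost when WT 1, WT 2, WT 3, CKO 1 or CKO 3 was left out, with an adjusted p of up to 0.116.

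Dars, the aspartyl-tRNA synthetase, had a difference nearly as large that did not pass the threshold. It stood at 135, 163 and 116 CPM in WT and at 237, 193 and 223 CPM in CKO, which did not overlap (log2 fold change 0.67, SE 0.18, limma's adjusted p = 0.0553). Without CKO 2, a library that stood apart, it passed, with 0.75 and limma's adjusted p of 0.0190. It did not pass without any other 1 library, and without WT 3 limma's adjusted p was 0.117. Rars and Dars belong, with Eprs, to the multisynthetase complex. The 8 synthetases of that complex were Eprs, Lars, Iars, Mars, Qars, Kars, Rars and Dars, and 3 had positive and 5 negative differences. Their summed level was 1042, 1133 and 1017 CPM in WT and 997, 912 and 977 CPM in CKO. The sums did not overlap, with Eprs alone holding 369.7 to 399 CPM of the WT sums and 173 to 181 CPM of the CKO sums. Of the others, Kars, Rars and Dars were above WT in every CKO library, and Lars, Iars, Mars and Qars overlapped. The lower sums in CKO therefore do not describe the set as a whole.

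The scaffold genes had unlike values. Aimp1, the p43 subunit, stood at 144, 144 and 140.2 CPM in WT and 146, 149 and 135 CPM in CKO, and overlapped (log2 fold change 0.01, SE 0.15, adjusted p = 0.989 by limma). Aimp2, the p38 subunit on which the complex is assembled, stood at 69.6, 63.8 and 70.1 CPM in WT and at 91.5, 83.7 and 91.9 CPM in CKO. All CKO libraries lay above all WT libraries, and the difference did not pass (0.39, SE 0.17, limma's adjusted p = 0.219). The scaffold gene Eef1e1 is no member here but carries the same complex, and it rose from 73.4 ± 0.836 to 132 ± 19.6 CPM (0.83, SE 0.17, limma's adjusted p = 0.023). Exons of Aimp1 and Aimp2 overlap genes on the opposite strand (Tbck and Eif2ak1), and the strand setting of the counting is not given in the sources used here.

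Gars, the glycyl-tRNA synthetase, serves both compartments, and glycine is the most frequent residue of a collagen helix. Its libraries were split: 136, 141 and 264 CPM in the WT libraries (in order) and 63.3, 269 and 87.5 CPM in the CKO libraries. WT 3 and CKO 2, the libraries that stood apart over all genes, were the high ones, and the groups overlapped (-0.58, SE 0.46, limma's adjusted p = 0.511). Without CKO 2 the value was -1.20 with an adjusted p of 0.0202, and without WT 3 it was -0.28 with an adjusted p of 0.805. The sign was negative in all 13 alternative settings, and the size and the call depended on which of these libraries was kept.

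**Figure D2:**
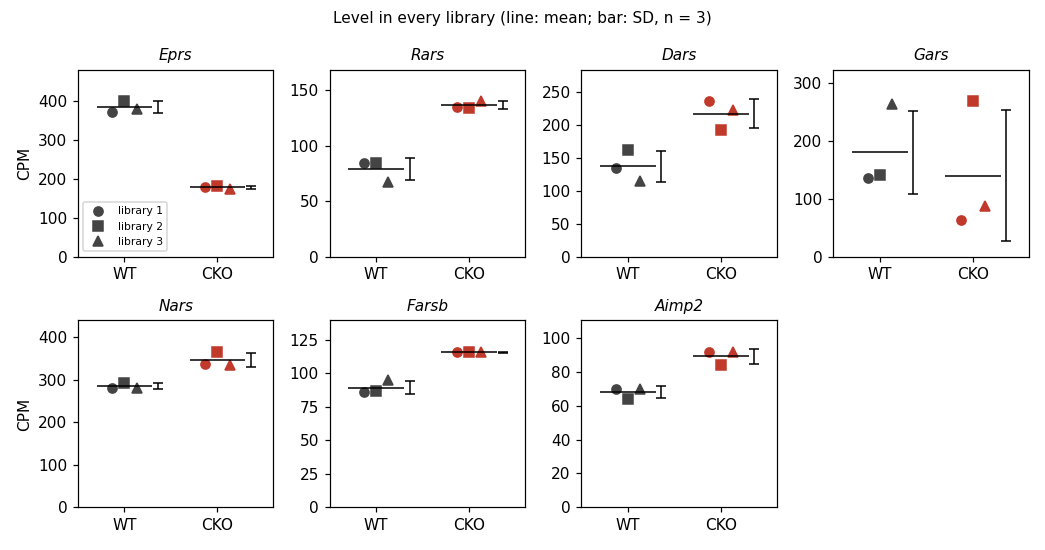
CPM of 7 genes in each library, with circles, squares and triangles for libraries 1, 2 and 3 of each genotype, a line at the mean and a bar of 1 SD (n = 3). WT and CKO are apart in Eprs, Rars, Dars, Nars, Farsb and Aimp2, and in Gars WT 3 and CKO 2 stand at 264 and 269 CPM above the other libraries.

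Among the other cytosolic genes, differences were small. Nars, the asparaginyl-tRNA synthetase, had 281, 293 and 281 CPM in WT and 338, 367 and 335 CPM in CKO (0.28, SE 0.14, limma's adjusted p = 0.276). Farsb, the beta subunit of the phenylalanyl enzyme, had 86.3, 87.1 and 94.6 CPM in WT and 116, 115 and 116 CPM in CKO (0.37, limma's adjusted p = 0.210). Both were higher in every CKO library without passing the threshold, as were Aars (0.26), Kars (0.30) and Farsa (0.18). Farsa and Farsb form 1 enzyme of paired subunits, and their WT levels per kilobase of transcript were close, 39.8 ± 0.992 and 43.9 ± 2.27 CPM per kilobase. Yars, the tyrosyl-tRNA synthetase, was lower in every CKO library: 124, 136 and 108 CPM in WT against 94.2, 95.3 and 105 CPM (-0.31, limma's adjusted p = 0.317). The libraries overlapped in Cars, Lars, Mars, Qars, Iars, Hars, Sars, Tars, Vars and Wars, whose log2 fold changes lay between -0.29 and 0.20. The signs of Sars, Tars, Vars and Wars changed in 3 or more of the alternative settings, as did those of Aimp1, Ears2 and Mars2, so no direction is read from any of them singly. Tarsl2, a second threonyl enzyme, had 0 to 2 reads in a library, which is under the floor of 3 reads (2.06 to 2.60 CPM).

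Per kilobase of transcript, WT levels of the cytosolic genes spanned from Sars (212 ± 23.9 CPM per kilobase, mean ± SD, n = 3) to Vars (9.31 ± 1.65) among those tested. Nars followed Sars at 104 ± 2.40, then Eprs at 78.0 ± 3.10, Gars at 75.8 ± 30.3, Wars at 64.4 ± 21.8 and Dars at 63.4 ± 10.9 CPM per kilobase. Eprs, Gars, Wars and Dars were neighbours in this order that did not differ beyond the SD of Gars and Wars. In CKO, Eprs stood at 36.3 CPM per kilobase, near the WT median of the cytosolic set (37.8), and Dars at 100.1 CPM per kilobase. Aimp1 and Aimp2 stood at 127 and 57.2 CPM per kilobase in WT.

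**Figure D3:**
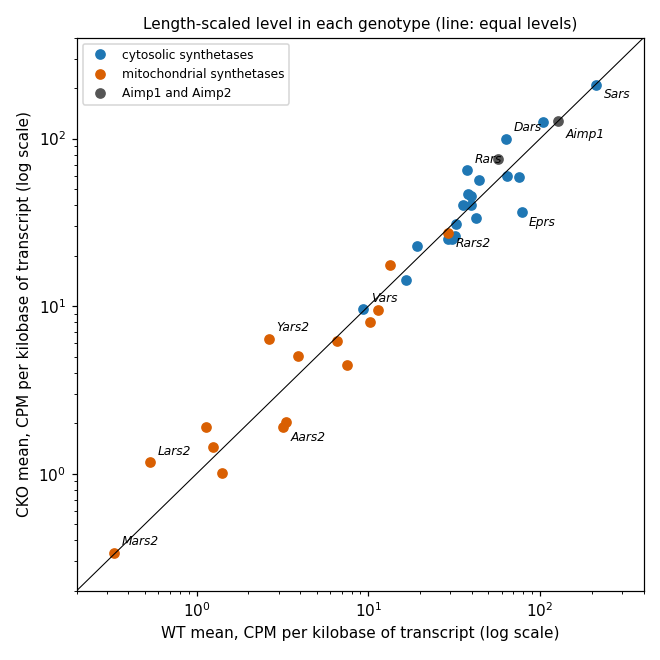
Mean level in WT (horizontal) and CKO (vertical) in CPM per kilobase of transcript on log axes, with 1 point per tested gene that is reported singly, coloured by compartment, and a line of equal levels. Sars is highest at 212 in WT, Eprs lies below the line (78.0 to 36.3), and most mitochondrial genes lie under the cytosolic ones.

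The mitochondrial set was measured with far fewer reads. Its median WT level was 3.33 CPM per kilobase, from 29.0 for Rars2 down to genes at the floor, and it took 8.31% to 10.1% of all synthetase reads in WT and 8.30% to 9.06% in CKO. Of 17 genes, 16 were tested, 8 with positive and 8 with negative log2 fold changes (median -0.03, all genes 0.01), and 0 passed the adjusted threshold with limma, edgeR or DESeq2. Nars2 had 0 or 1 read in each library. By unadjusted p under 0.05, limma gave 1 higher (Yars2) and 1 lower, where 21.3% of all genes had such a p. The share of these 16 whose genotypes did not overlap was 31.3%, and it was 24.7% among 7848 genes in their level range of 2.30 to 52.6 CPM.

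Sars2, the mitochondrial seryl enzyme, had 11.6, 12.8 and 17.7 CPM in WT and 9.63, 10.1 and 5.20 CPM in CKO (-0.72, SE 0.35, limma's adjusted p = 0.274). All CKO libraries lay below all WT libraries, and the difference did not pass the test.

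Tars2, the mitochondrial threonyl enzyme, lay within a narrow range in each genotype, with 32.6, 33.8 and 29.6 CPM in WT and 42.6, 42.6 and 41.6 CPM in CKO. It was higher in every CKO library without passing (0.39, SE 0.20, limma's adjusted p = 0.290). Wars2, the tryptophanyl enzyme, had 21.7, 18.8 and 11.0 CPM in WT and 31.6, 10.8 and 24.3 CPM in CKO, which overlapped, with CKO 2 the lowest of all (0.29, SE 0.40, limma's adjusted p = 0.736). Yars2, the tyrosyl enzyme, had 5.80, 0.750 and 5.91 CPM in WT and 9.63, 14.4 and 6.07 CPM in CKO. Its log2 fold change of 1.27 (SE 0.57) had an unadjusted limma p of 0.0491 and an adjusted p of 0.233. It met the study's criterion with all libraries, but not under TMM scaling, with the pseudocount of 0.1, in DESeq2, under the replicate block, or without WT 2, CKO 1 or CKO 2, and it was not tested in edgeR. WT 2 held 1 read of Yars2, and WT 3 and CKO 3 held 7 each, so the groups were separated by scaling alone at that edge. Aars2, the alanyl enzyme, overlapped with all libraries (-0.91, limma's adjusted p = 0.343) and passed when CKO 2 was left out (-1.51, adjusted p = 0.0425).

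Each cytosolic gene was set against the mitochondrial gene for the same amino acid within a library, and in 6 of 18 such pairs the ratios of the genotypes did not overlap. Of single genes, 27.7% of all tested did not overlap. That is an unlike measure, and no share was computed for ratios of other gene pairs. The pairs are also not separate, as Eprs and Fars2 each enter more than 1, and Nars2 was not tested. The log2 ratio of Rars to Rars2 was 0.51, 0.60 and 0.51 in WT and 1.62, 1.25 and 1.35 in CKO. Every CKO library had the higher ratio. For Eprs to Ears2, the mitochondrial glutamyl enzyme, it was 4.17, 4.71 and 5.61 in WT and 3.68, 3.70 and 3.73 in CKO, so that CKO was lower in each library. The ratios of Tars to Tars2, Lars to Lars2 and Yars to Yars2 were also lower in every CKO library. The last 2 rest on few mitochondrial reads, 8 of Lars2 and 16 of Yars2 over all WT libraries. Ears2 held 27, 19 and 8 reads in the WT libraries (in order). In the other 12 pairs the ratios overlapped. Among them was Eprs to Pars2, the mitochondrial prolyl enzyme, with 5.2, 5.6 and 4.7 in WT and 4.4, 4.9 and 4.6 in CKO. These ratios are given as a description and were not tested.

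The synthetases fall into 2 catalytic classes with unrelated folds: class I holds the enzymes for arginine, cysteine, glutamate, glutamine, isoleucine, leucine, methionine, tryptophan, tyrosine and valine, and class II the rest, while Eprs holds both and is left aside. The grouping was looked up after the values were seen and was not tested, and genes of a class are not replicates. Of all genes tested, 6180 had positive and 5975 negative log2 fold changes. Of 9 cytosolic class I genes, 8 had negative log2 fold changes (median -0.19), with Rars the exception, and of 10 tested cytosolic class II genes 8 had positive ones (median 0.23), with Gars and Sars the exceptions. These counts include Sars, Tars, Vars and Wars, whose signs changed with the settings, as the mitochondrial counts include Ears2 and Mars2. In mitochondria most signs were the other way round. There 7 of 9 class I genes were positive (median 0.26, exceptions Cars2 and Rars2) and 6 of 7 class II genes were negative (median -0.60, exception Tars2). Over the 13 alternative settings the cytosolic medians ranged from -0.26 to -0.15 (class I) and from 0.16 to 0.28 (class II), and the mitochondrial ones from 0.01 to 0.43 and from -0.72 to -0.34. The number of negative signs among cytosolic class I genes ranged from 6 to 8 of 9 over these settings, and that of positive signs among cytosolic class II genes from 7 to 9 of 10 or 11. Mitochondrial class I had 5 to 8 positive signs of 9, with 2 of 4 in edgeR's test, and class II had 1 positive sign in each setting (Tars2). Only Rars of these 35 genes passed limma's adjusted p of 0.05 with all libraries, and 28 of them lay within 2 standard errors of 0. For each library, the median deviation of a group's genes from their means over all libraries was also taken. In cytosolic class I it overlapped between the genotypes, with WT 3 at -0.059 and CKO 1 at -0.017. It overlapped in mitochondrial class I too, with WT 1 at 0.051 and CKO 2 at 0.046. In class II the genotypes did not overlap in either compartment.

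**Figure D4:**
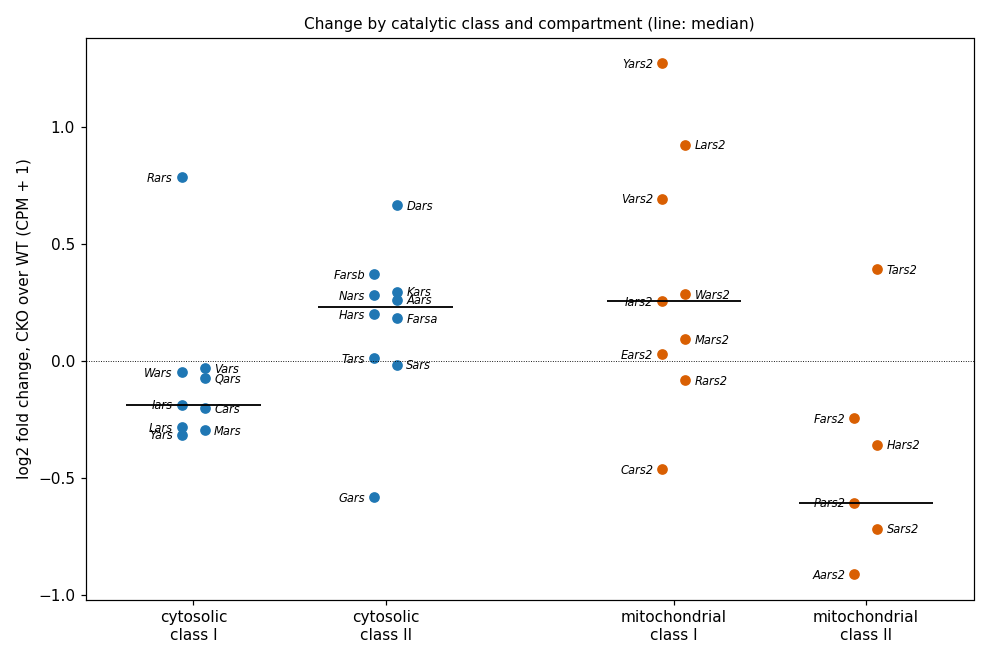
Log2 fold change (CKO over WT, CPM + 1) of the tested synthetase genes that are reported singly, without Eprs, grouped by catalytic class and compartment, with a line at the median over all tested genes of each group. The medians are -0.19 and 0.23 for cytosolic class I and II and 0.26 and -0.60 for mitochondrial class I and II.

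Around the synthetases, genes of the amino acid response were lower. Of 34 tested genes of this list, which covers Atf4 with enzymes, transporters and feedback genes it induces, 29 had negative log2 fold changes (median -0.34, all genes 0.01), 10 fell and 0 rose at limma's adjusted p under 0.05, against 2.6% and 3.18% of all genes. Without adjustment, 15 of the 34 had a p under 0.05, each with a negative difference. The list was compiled with earlier results of these data in view, so its direction is not independent evidence. Their summed level was 6303 to 6451 CPM in WT and 4134 to 5000 CPM in CKO. Pycr1, the last enzyme of proline synthesis, had 245, 245 and 295 CPM in WT and 37.8, 44.0 and 36.4 CPM in CKO (-2.70, SE 0.17, limma's adjusted p = 6.74e-05). Trib3, a pseudokinase induced by Atf4, had 351, 352 and 203 CPM in WT and 90.1, 97.4 and 101 CPM in CKO (-1.60, limma's adjusted p = 0.00373). Cth, which makes cysteine from cystathionine, fell by 1.38, and Mthfd2, of mitochondrial folate metabolism, fell by 0.82. All 4 were below WT in every CKO library. The other 6 that fell were Aldh18a1, which starts proline synthesis from glutamate, the arginine transporter gene Slc7a3, the transaminase gene Gpt2, Chac1, Nupr1 and Atf5. Of the 10, 3 (Pycr1, Trib3 and Cth) passed without any 1 library. Without CKO 2, 13 genes of the list fell, as did 606 of all 12055 genes tested.

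Atf4 and Asns did not pass the test. Atf4 had 606, 648 and 622 CPM in WT and 512, 649 and 510 CPM in CKO, which overlapped (-0.18, SE 0.15, limma's adjusted p = 0.548). Asns, the asparagine synthetase and an established Atf4 target, had 390, 413 and 411 CPM in WT and 357, 289 and 387 CPM in CKO. It was below WT in every CKO library without passing (-0.24, SE 0.16, limma's adjusted p = 0.402). Eif2ak4, the Gcn2 kinase that senses uncharged tRNA, stood at 5.05 to 9.76 CPM over all libraries (-0.27, SE 0.37, limma's adjusted p = 0.727). Atf4 is controlled largely at translation, and its protein was not measured.

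Promoter sequence was compared because Atf4 with C/EBP partners binds a composite element, searched here as TGATGNAA on both strands. Only the 250 bases before the start were searched in each RefSeq promoter window (GRCm38.p6), and not the 50 bases after it. The windows of 30 of the 40 members were matched. The letters were in 3 of 14 cytosolic genes (21.4% of windows), namely Aars, Gars and Tars, in 0 of 15 mitochondrial windows and in 3.45% of all promoters. The E-box CACGTG, searched as a motif of the Myc family with no match that overlaps one of the first, was in Aars, Farsb and Iars (21.4% of cytosolic windows, 6.02% of all promoters). None of these 5 genes passed the adjusted test with all libraries, with log2 fold changes of 0.26 for Aars, -0.58 for Gars, 0.01 for Tars, 0.37 for Farsb and -0.19 for Iars. Eprs, which did, held neither run of letters in these 250 bases, and Rars, which also did, had no window matched. The 250 bases before the start are shown for Eprs (chr1:185362794-185363043, plus strand), as the member with the smallest adjusted p, and for Gars (chr6:55037751-55038000, plus strand) and Tars (chr15:11399659-11399908, minus strand), as cytosolic members with the composite element. Capitals mark TGATGNAA as read on the opposite strand.
Eprs: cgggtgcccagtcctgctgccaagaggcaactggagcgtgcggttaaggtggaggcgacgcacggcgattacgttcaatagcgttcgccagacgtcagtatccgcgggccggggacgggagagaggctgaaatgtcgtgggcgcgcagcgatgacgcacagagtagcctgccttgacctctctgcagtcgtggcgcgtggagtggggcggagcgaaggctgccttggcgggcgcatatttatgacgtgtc
Gars: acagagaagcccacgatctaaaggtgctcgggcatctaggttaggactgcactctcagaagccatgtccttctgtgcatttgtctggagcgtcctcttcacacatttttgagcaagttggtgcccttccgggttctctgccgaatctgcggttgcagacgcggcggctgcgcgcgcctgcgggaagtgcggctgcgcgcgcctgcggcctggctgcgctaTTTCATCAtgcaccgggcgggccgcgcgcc
Tars: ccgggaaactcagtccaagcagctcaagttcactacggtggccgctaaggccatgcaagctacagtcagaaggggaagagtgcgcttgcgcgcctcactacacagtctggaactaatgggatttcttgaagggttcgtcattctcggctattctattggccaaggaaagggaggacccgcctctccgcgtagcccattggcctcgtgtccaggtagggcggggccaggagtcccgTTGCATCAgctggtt
The element began 30 bases before the start in Gars and 15 bases before it in Tars. A match is a description of letters and no measurement of binding.

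In the other steps of tRNA use, few genes passed the adjusted threshold, which 5.78% of all genes passed. Among 9 tested genes for eIF2 and its kinases, Eif2s1, the alpha subunit of eIF2, rose from 232, 224 and 238 CPM in WT to 369, 375 and 346 CPM in CKO (0.65, SE 0.14, limma's adjusted p = 0.025). The list of 10 elongation factor genes includes the scaffold gene Eef1e1, the only 1 of them called higher. Eef2, which moves the tRNA through the ribosome, was the only 1 called lower. It fell from 3109 to 3682 CPM in WT to 2276 to 2418 CPM in CKO (-0.56, SE 0.14, limma's adjusted p = 0.042). In 47 genes for tRNA maturation, modification and editing, 23 were positive and 24 negative (median -0.04), with Rpp30, a subunit of RNase P, higher (0.82, limma's adjusted p = 0.017) and Tsen34, a subunit of the tRNA splicing endonuclease, lower (-1.02, limma's adjusted p = 0.028). Of 21 genes of RNA polymerase III and its factors, which transcribe tRNA genes, and of 4 genes that finish mitochondrial charging without a synthetase, limma called 0 at the adjusted threshold (medians -0.24 and 0.03). Without adjustment 3 of these 25 genes had a p under 0.05, as did 7 of the 10 elongation factor genes (3 higher, 4 lower), 13 of the 47 maturation genes (8 higher, 5 lower) and 1 of the 9 eIF2 genes, where 21.3% of all genes did. Of the 25, edgeR's quasi-likelihood test called 1 (Gatb) and DESeq2 0, and of the elongation factor genes edgeR also called Eef1b2 and of the maturation genes Mettl1 and Osgep. The calls of Eif2s1, Eef1e1, Eef2, Rpp30 and Tsen34 were each lost under the replicate block and when WT 1, WT 2, CKO 1 or CKO 3 was left out, that of Eef2 also with no filter and that of Tsen34 also without WT 3.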

How the data were processed

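Per the labels, RNA of growth plate cartilage was extracted with TRIzol and made into libraries with a stranded mRNA kit, and the submitters' processing notes name cutadapt (version 2.5), HISAT2 and featureCounts (version 1.6.3). The build, annotation and strand setting of the counting are not given in the sources used here. The authors deposited CPM for 15803 genes. All values (100%, within 0.01 reads) equalled a whole number of reads, which were recovered. A floor of 3 reads covers counting error only.

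Groups came from the titles of the 6 samples. The fit was limma (version 3.58.1, R 4.3.3) on log2(CPM + 1) with a mean-variance trend, on genes averaging 1 CPM or more. It was also run on simulated data with 1 fixed spread for all libraries and larger changes than those of the members. That run does not show how the fit performs with libraries that stand apart, such as WT 3 and CKO 2, or on small changes. The alternatives were a pseudocount of 0.1, no filter, TMM scaling, a replicate block, edgeR (version 4.0.16) and DESeq2 (version 1.42.0) on recovered reads, and each library left out. Leaving out both WT 3 and CKO 2 was added after the data were seen. Members and gene lists were chosen with earlier results of these data known. Values by library are given for members past either threshold, the 2 largest changes of each direction and compartment at 10 CPM or more, the most divergent pair, the scaffold genes, and up to 4 called genes of each list with Atf4, Asns and Eif2ak4. Aars2, Farsb, Nars and the promoter motifs were picked later, with their values known. The values of 1 member are not reported here, and it stays in the counts and sums.

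Of the Ensembl identifiers, 15212 of 15217 were found in GENCODE M21 (GRCm38), which gave coordinates and the length of the transcript with the longest coding sequence. Near-identical copies (BLAST version 2.17.0, at least 90% identity over 300 bases) include those of Aars, Aimp1, Aimp2, Iars and Iars2. Members whose exons overlap genes on the opposite strand include Hars with Hars2, Farsb with Sgpp2 and Mars with Ddit3, and their reads are uncertain.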

Additional observations from a re-analysis of the deposited data

How the results depend on the processing

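Eprs stayed lower with an adjusted p under 0.05 in all 13 alternatives. Rars stayed higher in all, and its call was lost in 6: under the replicate block (0.79, adjusted p = 0.0738) and without any 1 library but CKO 2. Over members and alternatives, 471 values stayed on the same side of the adjusted threshold, nearly all of them uncalled, 10 gained a call and 6 lost one. Sample pairs with the same replicate number correlated at 0.04, -0.13 and -0.10 in their deviations from the genotype mean. Pairs with unlike numbers correlated at -0.12 to 0.16. Deviations from a mean of 3 libraries sum to 0 in each genotype, so these values cannot show whether a pair shared a litter or a batch. The replicate block gave 225 genes higher and 160 lower, 0 members higher by adjusted p or by the study's criterion, and 0 higher and 7 lower list genes. Members higher by the study's criterion numbered 0 under TMM scaling, the pseudocount of 0.1, edgeR and DESeq2, where Eprs stayed lower by it. With edgeR, 380 genes and 1 list gene were higher by that criterion. The mitochondrial median was -0.0698 (TMM), -0.13 (DESeq2), -0.32 (edgeR, with only 11 of its genes tested) and -0.0811 (no filter).

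Leaving out single libraries gave 123 to 692 genes higher and 79 to 606 lower, 0 to 2 members higher and 1 to 3 lower, and 0 to 5 list genes higher and 3 to 20 lower. By the study's criterion it gave 571 to 694 genes higher and 577 to 808 lower, 0 to 1 members higher and 1 to 3 lower, and 2 to 5 list genes higher and 7 to 12 lower. The cytosolic median ranged from -0.0370 to 0.0606 and the mitochondrial from -0.224 to 0.0301. Without CKO 2, 5 of 38 tested members were called (Aars2, Dars, Eprs, Gars and Rars). In that setting 692 of all 12055 genes tested were higher and 606 lower, so more genes of every kind were called.

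Leaving out both WT 3 and CKO 2 gave 1312 genes higher and 1098 lower of 11911 tested. Of 38 members tested, 4 were higher (Aimp2, Dars, Farsb, Rars) and 5 lower (Eprs, Gars, Lars and Wars among them). This setting also gave 12 list genes higher and 33 lower, 2 members lower by the criterion, and medians of 0.13 (cytosolic) and -0.16 (mitochondrial). WT 3 and CKO 2 were picked because they differed from the others, so the spread that remains is smaller by construction. The calls without them do not stand beside those of all 6 libraries. At 1153871 to 1454094 reads per library, genes such as Yars2, Lars2, Mars2 and Cars2 had too few reads for small changes to be detectable.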

Other observations

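Markers of other cell types in the same libraries were summed as CPM, and their part in the synthetase values was not tested. Fibroblast and tendon markers stood at 3250 to 5235 CPM in WT and 1224 to 2520 CPM in CKO. Hypertrophic chondrocyte markers stood at 363 to 813 CPM in WT and at 2894 and 3129 CPM in CKO 1 and CKO 3, with 514 CPM in CKO 2. CKO 2, the library with the highest Gars of its group, was thus within the WT range of this sum. In WT the order was the other way, as WT 3 had both the highest Gars and the highest sum (813 CPM). Mmp13 and Ibsp made up most of the sums, with Mmp13 at 2155, 377 and 2301 CPM in the CKO libraries (in order). Col10a1 stood at 24.8, 45.5 and 16.5 CPM there, highest in CKO 2 (log2 fold change 0.33, limma's adjusted p = 0.738). Mef2c had a negative log2 fold change (-0.25), and Ihh had too few reads to test. All 4 tested genes of this list overlapped between the genotypes, and 0 passed limma's adjusted p under 0.05. Osteoblast markers stood at 358 to 599 CPM in WT and 292 to 607 CPM in CKO, with Col1a1 a large part of the sums. Col1a1 had a negative log2 fold change (-0.57) and the other 5 tested genes positive ones, and 0 passed limma's adjusted p under 0.05. Skeletal muscle markers stood at 33.0 to 139 CPM in WT and 57.2 to 66.0 CPM in CKO. Keratinocyte markers stood at 21.1 to 42.0 CPM in WT and 62.1 to 119 CPM in CKO, with Krt5 and Krt14 at 0 or absent from the table, and Sbsn rose. Of the macrophage and osteoclast list, Cd68 rose (log2 fold change 2.74, limma's adjusted p = 0.00114). Endothelial markers stood at 0 to 3.38 CPM in WT and 0.688 to 2.89 CPM in CKO, neutrophil and other leukocyte markers at 1.5 to 2.17 CPM and 2.60 to 9.38 CPM, and red blood cell markers at 0.725 to 5.25 CPM and 2.06 to 28.9 CPM.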
